A study of Mus musculus with 6 samples.

Results

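Selective autophagy receptors and the ATG8 family were followed in AE9a mouse leukemia cells of 2 marrow regions, the central bone marrow (CBM) and the endosteal bone marrow (EBM). The genes were taken by symbol from a deposited table of read counts, where 10 of 54532 genes matched. There were 5 receptor genes, Sqstm1, Nbr1, Optn, Tax1bp1 and Calcoco1, and 5 ATG8 genes, Gabarap, Gabarapl1, Gabarapl2, Map1lc3a and Map1lc3b. Each symbol matched 1 gene, and all 10 passed the filter on low counts, which left 13352 genes for testing.

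The study asked how AE9a leukemia cells at the bone surface differ in their transcripts from those in the inner marrow. RNA-seq was done on 3 CBM and 3 EBM libraries. The leukemia came from c-Kit+ C57BL/6 bone marrow progenitors that carried AE9a, a shortened form of the AML1-ETO fusion oncoprotein, on a retrovirus together with GFP, and cells of the third transplant generation in C57BL/6 mice were used, the first recipients being young irradiated females. CBM cells were flushed out of femurs and tibias, while EBM cells were released from the flushed bones with collagenase at a warm temperature, so that region and digestion cannot be told apart. Both groups carry the same oncogene and the labels place both in culture medium with serum before and after sorting. No source states whether a library came from 1 mouse or from a pool, so the p-values measure the spread between these libraries, which may be technical.

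Macroautophagy encloses cytoplasm in a double membrane that fuses with the lysosome. ATG8 proteins, of the LC3 and GABARAP subfamilies, are joined to a lipid of that membrane, and receptors tie ubiquitinated or other cargo to them through a short LC3-interacting region. p62, the product of Sqstm1, is itself degraded by autophagy and also binds Keap1, the inhibitor of the stress factor Nrf2. Transcript levels therefore do not give the flux through the pathway, and no protein or flux assay was part of these libraries.

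Sqstm1 was the receptor that differed most between the regions, with an EBM level 1.77-fold that of CBM and no overlap between the libraries. Gabarap and Gabarapl1 were also higher in every EBM library than in every CBM library, and their mean levels in EBM were 1.24-fold and 1.38-fold those in CBM. The 4 other receptors and the 3 other ATG8 genes overlapped between the regions. With edgeR's quasi-likelihood test and Benjamini-Hochberg adjustment, 0 of the 10 genes passed 0.05, as did 0 of all 13352 genes (0%). At an unadjusted edgeR p under 0.05, 1056 genes passed (7.91%), among them Sqstm1, Gabarap and Gabarapl1. Those higher in EBM were 535 (4.01%) and those lower 521 (3.9%), and 3 of the 10 genes were in the first set and 0 in the second. DESeq2 called 176 of 12280 genes (1.43%) after adjustment, 131 higher (1.07%) and 45 lower (0.366%) in EBM, and Sqstm1, in the higher set, was the 1 member among them. limma-voom called 0 genes after adjustment and 1080 at an unadjusted p under 0.05. Every EBM library stood above every CBM library in 998 genes (7.47%), and 3 of the 10 genes did so. The opposite order was seen in 1022 genes (7.65%) and in 0 of the 10.

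The libraries held 16436526 to 19462964 counts on genes, so 3 counts came to 0.149 to 0.193 CPM (counts scaled to the TMM-normalized library size), a floor that covers counting error only. In a principal component analysis the leading component (53.0% of the variance) was not one of region. CBM 2 (42.9) and EBM 3 (46.0) lay at one end and CBM 1 (-38.5) and EBM 1 (-36.4) at the other. The second component (19.7%) separated the regions. Kit, the receptor by which the original progenitors were chosen, was at 210 to 225 CPM in CBM and 196 to 239 CPM in EBM. The other 3 blast markers were low and uneven over libraries. Cd34 was at 15.4, 1.16 and 4.86 CPM in CBM 1, 2 and 3 and at 16.4, 10.5 and 1.22 CPM in EBM 1, 2 and 3. Mpo lay between 1.65 and 14.9 CPM in CBM and between 5.53 and 35.8 CPM in EBM. Over all 4 markers, Ctsg included, the median log2 fold change was 0.98, and 0 of them were under an unadjusted edgeR p of 0.05. The 7 osteoblast markers summed to at most 0.78 CPM in any library and 3 of them were at 0 throughout, and the 4 stroma markers summed to at most 0.79 CPM. Neutrophil markers, by contrast, summed to 3.27 to 215 CPM in CBM and 33.3 to 154 CPM in EBM, and erythroid markers to 2037 to 5434 CPM and 2467 to 3766 CPM. Of the 5 osteoclast markers 3 were at 0 in all libraries, and nearly all of the 258 to 565 CPM of the list was Acp5. The lists for endothelium, macrophages and T cells each summed to at most 3.28 CPM in any library, that for B cells to at most 14.5 CPM and that for megakaryocytes to at most 28.5 CPM. In bulk libraries, fewer cells of a type and less RNA per cell cannot be told apart.

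The promoter sequences of Sqstm1 and Gabarapl1 are shown because these were the receptor and the ATG8 gene with the smallest p. Both are from RefSeq on GRCm38.p6, stop before the annotated gene starts and have the GC box, GGGCGG or its reverse complement CCGCCC, in capitals. The Sqstm1 stretch, chr11:50210828-50211070 on the minus strand, has 3 GC boxes and 64.2% G and C, and the Gabarapl1 stretch, chr6:129532942-129533159 on the plus strand, has 1 GC box and 43.6% G and C.
Sqstm1: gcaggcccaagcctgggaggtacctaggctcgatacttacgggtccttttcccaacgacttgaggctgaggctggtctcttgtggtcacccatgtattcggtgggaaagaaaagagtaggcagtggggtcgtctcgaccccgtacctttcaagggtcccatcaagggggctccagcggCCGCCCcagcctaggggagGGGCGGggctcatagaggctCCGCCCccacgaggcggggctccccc
Gabarapl1: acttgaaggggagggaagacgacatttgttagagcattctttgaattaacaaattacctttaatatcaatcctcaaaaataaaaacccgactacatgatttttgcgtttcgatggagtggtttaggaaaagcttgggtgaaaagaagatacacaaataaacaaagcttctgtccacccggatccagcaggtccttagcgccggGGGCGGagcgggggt
In RefSeq promoter windows of 250 bases before to 50 after the start, 9 of the 10 genes had a window. The 9 genes had 11 windows, and a gene counted when any of its windows matched, whereas shares of all promoters are per window. The GC box was in those of 8 genes, and in 35.7% of all 32851 promoters when both strands were searched. The E-box of the CLEAR element that MiT/TFE factors bind, CACGTG, was in 0 of the 9 genes and in 7.15% of all promoters. The antioxidant response element core, TGACNNNGC, was in the windows of Map1lc3b and Tax1bp1 and in 12.4% of all promoters. The FoxO site GTAAACA (3.65% of promoters), the AP-1 site TGACTCA (5.2%), the CRE TGACGTCA (1.79%) and the NF-kB site (1.63%) were in 0 of the 9. TATAAA, the letters of the TATA box, was found for Sqstm1 and in 13.6% of all promoters. The Sqstm1 match began at position -1 from the RefSeq start, outside the stretch printed. A match describes these letters in this window and is not evidence of binding. The lack of a match does not speak to sites outside this short window, which were not searched.

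Sqstm1 (ENSMUSG00000015837) lies at chr11:50199366-50210827 on the minus strand of GRCm38, and its principal transcript has 8 exons. After TMM scaling, Sqstm1 was at 323, 290 and 244 CPM in CBM 1, 2 and 3 and at 540, 525 and 451 CPM in EBM 1, 2 and 3. The lowest EBM library was thus above the highest CBM library, and CBM 3 and EBM 3 were the lowest of their regions. Here and below, ± gives the SD of the 3 libraries of a region around their mean. Sqstm1 averaged 286 ± 39.9 CPM in CBM against 506 ± 47.7 CPM in EBM, and the edgeR log2 fold change (EBM over CBM) was 0.82, with a standard error (SE) of 0.14. The edgeR p of 0.00055 ranked Sqstm1 at place 41 of all genes tested, and the adjusted p was 0.17. The adjusted p was 7.2e-05 with DESeq2 and 0.057 with edgeR without a filter on low counts. Over all 13 alternatives the adjusted p lay between 7.2e-05 and 0.70 and the log2 fold change between 0.72 and 0.92. The exact two-sided permutation test over the 20 relabellings of the libraries gave 0.1, the smallest p it allows, and did so for Gabarap and Gabarapl1 too.

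The libraries also differed in a list of 20 genes that tissue dissociation is known to induce, such as Fos, Jun and the heat shock genes. EBM had the higher level for 15 of them and the lower for 5, and the list median of the log2 fold change was 0.47. At an unadjusted edgeR p under 0.05, 4 were higher (4.01% of all genes) and 1, Dusp1, lower (3.9% of all genes), and 0 passed after adjustment. DESeq2 called 2 higher, Hspa1a and Hspa1b, and 1 lower, Dusp1, after adjustment. Hspa1b, an inducible HSP70 gene so close to Hspa1a that reads may be divided between them, was at 9.50, 3.74 and 3.37 CPM in CBM and 112, 50.3 and 58.6 CPM in EBM. Fos lay the other way, at 417, 102 and 52.3 CPM in CBM and 101, 81.1 and 47.4 CPM in EBM. The mean deviation of the list from each gene's mean was 0.14, -0.25 and -0.98 on the log2 scale in CBM 1, 2 and 3 and 0.42, 0.44 and 0.23 in EBM 1, 2 and 3. The regions did not overlap in this list mean, but the mean takes in the large log2 fold changes of Hspa1a (4.40) and Hspa1b (3.74). Gene by gene, the regions were apart with EBM higher for 5 of the 20 genes and with EBM lower for 1. CBM 1 was the highest of all libraries for Fos, Jun, Ier3, Dusp1 and Zfp36. The list mean therefore does not show that the list as a whole separates the regions. CBM 3 and EBM 3 were the lowest of their regions both in this mean and for Sqstm1. The part of this list in the difference of Sqstm1 was not tested.

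**Figure D1:**
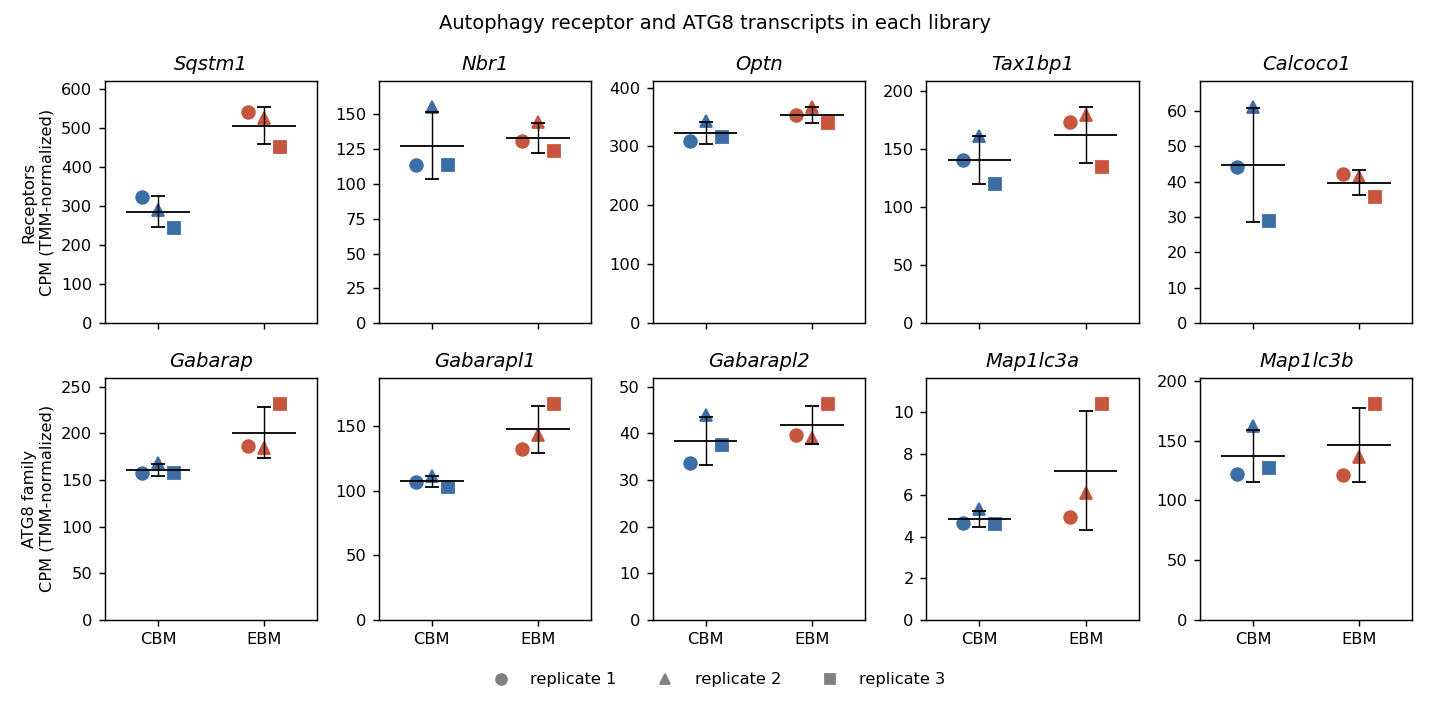
Level of each gene in every library, as CPM after TMM scaling on an axis from 0 (points are libraries, with the shape giving the replicate number; horizontal lines are means and bars the SD, n = 3). The regions are apart for Sqstm1, Gabarap and Gabarapl1 and overlap for the other genes. EBM 3 is the highest library for all 5 ATG8 genes, and CBM 2 is the highest CBM library for all 5.

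The 4 other receptors showed smaller differences. Optn encodes optineurin, a ubiquitin-binding receptor for mitochondria and bacteria that the kinase TBK1 phosphorylates, and lies at chr2:5020642-5064051 on the minus strand. Optn was at 309, 343 and 316 CPM in CBM and 353, 367 and 340 CPM in EBM. EBM 3 was below CBM 2, so the regions overlapped, and the means were 323 ± 18.4 and 354 ± 13.4 CPM. The edgeR log2 fold change of Optn was 0.13 (SE 0.089, adjusted p = 0.80). A transcript antisense to Optn, 4930551O13Rik, had at most 3.58% of the counts of Optn.

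Tax1bp1 encodes a receptor for ubiquitinated cargo and protein aggregates and lies at chr6:52713729-52766780 on the plus strand. Tax1bp1 was at 141, 162 and 120 CPM in CBM and 173, 179 and 135 CPM in EBM. EBM 3 was again below the 2 other EBM libraries and also below CBM 1 and CBM 2. The edgeR log2 fold change was 0.20 (SE 0.16, adjusted p = 0.84). Nbr1, which encodes a receptor built like p62 that works beside it in cargo clustering, lies at chr11:101552149-101581951 on the plus strand. Nbr1 was at 113, 155 and 113 CPM in CBM and 131, 145 and 124 CPM in EBM, so the EBM libraries lay inside the CBM range. The log2 fold change of Nbr1, 0.06, was below its SE of 0.15 (edgeR adjusted p = 0.98). Calcoco1, a receptor for the endoplasmic reticulum and Golgi, lies at chr15:102706777-102722178 on the minus strand. Calcoco1 was at 44.2, 61.1 and 28.9 CPM in CBM and 42.2, 41.2 and 35.6 CPM in EBM. It was the only one of the 10 genes with a lower mean CPM in EBM, and its log2 fold change was -0.17 (SE 0.26, edgeR adjusted p = 0.95). The EBM libraries of Calcoco1 again lay inside the CBM range, and without CBM 2 the log2 fold change was 0.12.

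The share of Sqstm1 among the receptors restates the Sqstm1 difference and is not a separate result, since the sum of the 4 others was nearly level. Per gene length, as TPM, which divides counts by gene length and scales each library to the same sum, Sqstm1 held 44.4%, 38.0% and 38.2% of the summed receptor level in CBM 1, 2 and 3. In EBM 1, 2 and 3 it held 53.9%, 52.1% and 51.1%. All 3 EBM shares were above all CBM shares, with means of 40.2% ± 3.66 and 52.4% ± 1.38. The ratio of Sqstm1 to Nbr1 in TPM was 5.84, 3.82 and 4.41 in CBM and 8.47, 7.43 and 7.45 in EBM. The 4 receptors without Sqstm1 summed to 400 ± 33.1 TPM in CBM and 403 ± 38.9 TPM in EBM. These sums have no test, since the genes were chosen with earlier results known.

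The ATG8 genes are paralogs, and their coding sequences bear on whether reads can be told apart. The last 60 coding bases of the 3 GABARAP subfamily genes, bases 292 to 351 of the principal transcripts in GENCODE M21 without the stop codon, are shown 5′ to 3′ with the 31 positions that are identical in all 3 genes in capitals.
Gabarap: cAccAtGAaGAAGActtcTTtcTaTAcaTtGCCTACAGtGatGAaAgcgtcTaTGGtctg
Gabarapl1: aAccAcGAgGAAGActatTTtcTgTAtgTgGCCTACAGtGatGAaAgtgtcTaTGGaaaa
Gabarapl2: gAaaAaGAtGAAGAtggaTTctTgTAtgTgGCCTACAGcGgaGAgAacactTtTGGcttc
Gabarap and Gabarapl1 had the closest coding sequences of this subfamily, with 74.6% identity, and their longest identical run was the 17 bases gcctacagtgatgaaag inside the stretch above. Map1lc3a and Map1lc3b were 74.7% identical with a longest run of 15 bases. Between the subfamilies the identity was 50.3% to 55.1%. Processed copies were closer than the paralogs were. A search against annotated transcripts with at least 95% identity over at least 100 bases found 3 copies of Gabarapl2 and 4 of Map1lc3b. Gm6055, 99.7% identical to Map1lc3b over 375 bases, had 152 to 237 counts per library, where Map1lc3b had 2139 to 3085. The best-covered copy of Gabarapl2, Gm3724, had 5 to 16 counts per library. The levels of Map1lc3b and Gabarapl2 are uncertain for this reason, and summing the copies left log2 fold changes of 0.09 and 0.12. Such a sum sets no limit on the uncertainty, since how reads matching both a gene and its copy were counted is not known.

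Gabarap, the founding member of its subfamily, lies at chr11:69991143-69994951 on the plus strand and its principal transcript has 4 exons. Gabarap was at 157, 169 and 157 CPM in CBM and 186, 184 and 232 CPM in EBM. The lowest EBM library was above the highest CBM library, and EBM 3 stood above the other 2 EBM libraries. The means were 161 ± 6.45 and 200.5 ± 27.2 CPM. The edgeR log2 fold change was 0.32 (SE 0.12), and its p was 0.031 unadjusted and 0.57 adjusted. Without EBM 3 it was 0.19, and Gabarap was then no longer under an unadjusted p of 0.05, as was also the case without CBM 1 or CBM 3.

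Gabarapl1, which encodes the closest relative of GABARAP, lies at chr6:129533160-129542346 on the plus strand. Gabarapl1 was at 107, 112 and 103 CPM in CBM and 132, 143 and 168 CPM in EBM. The CBM libraries lay within a narrow range below all EBM libraries, and EBM 3 was again the highest. The means were 107 ± 4.33 and 148 ± 18.2 CPM. The log2 fold change was 0.46 (SE 0.11), and the edgeR p was 0.0046 unadjusted and 0.33 adjusted. The adjusted p was 0.082 with DESeq2. The log2 fold change lay between 0.35 and 0.53 over the 13 alternatives, with the lowest value without EBM 3.

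Gabarapl2, also known as GATE-16 and first described in transport through the Golgi, lies at chr8:111940703-111953612 on the plus strand. Gabarapl2 was at 33.7, 44.0 and 37.4 CPM in CBM and 39.7, 39.0 and 46.4 CPM in EBM, and the log2 fold change was 0.12 (SE 0.14, edgeR adjusted p = 0.92). CBM 2 was above EBM 1 and EBM 2, so the regions overlapped. Map1lc3b encodes LC3B, the protein used most as a marker of autophagosomes, and lies at chr8:121590361-121598760 on the plus strand. Map1lc3b was at 122, 162 and 127 CPM in CBM and 122, 137 and 181 CPM in EBM, and its log2 fold change was 0.09 (SE 0.18, edgeR adjusted p = 0.98). CBM 1 and EBM 1 were nearly level, while EBM 3 was highest, and without EBM 3 the log2 fold change was -0.10.

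Map1lc3a encodes LC3A and lies at chr2:155276297-155278073 on the plus strand. It was the lowest of the 10 genes, at 82, 101 and 93 counts in CBM and 90, 110 and 162 counts in EBM. In CPM this came to 4.67, 5.32 and 4.61 in CBM and 4.97, 6.12 and 10.4 in EBM. EBM 1 lay inside the CBM range and EBM 3 stood far above all other libraries. Its log2 fold change of 0.56 was larger than that of Gabarapl1, but the SE was 0.30 and the edgeR adjusted p 0.72. The log2 fold change of Map1lc3a was 0.18 without EBM 3 and 0.76 without EBM 1.

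**Figure D2:**
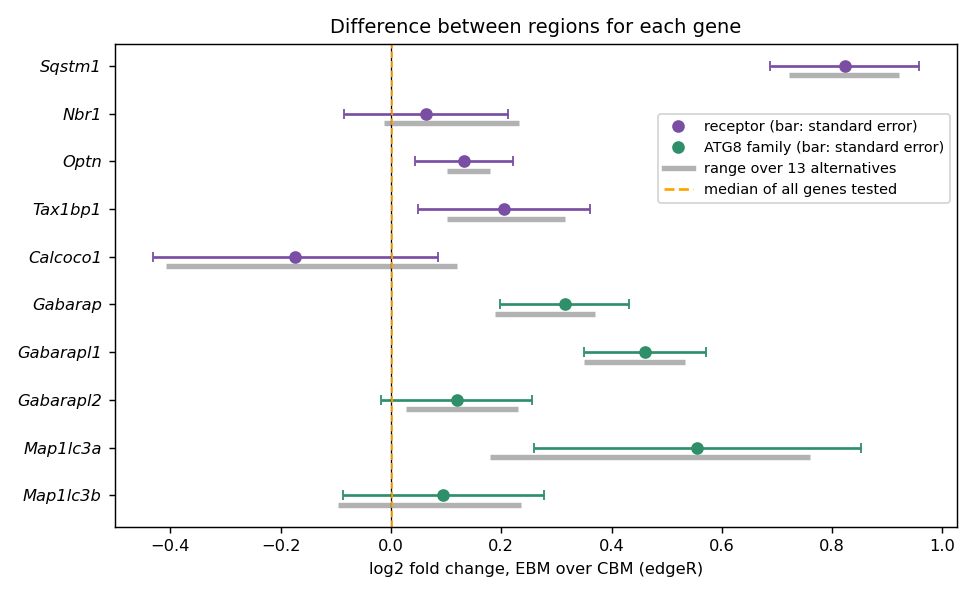
Log2 fold change of each gene, EBM over CBM, from edgeR (points, with bars of 1 standard error) above its range over the 13 alternatives (grey lines). Sqstm1 is farthest from 0, the ranges of Nbr1, Calcoco1 and Map1lc3b reach both sides of 0, and the dashed line at 0.00 is the median of all genes tested.

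The receptors and the ATG8 genes were then compared as classes. The log2 fold change was above 0 for 4 of the 5 receptors, with a median of 0.13, and for all 5 ATG8 genes, with a median of 0.32. Over all genes tested the median was 0.00, and 50.4% of genes were above 0. The pattern over libraries differed between the classes. Receptor TPM summed to 687, 707 and 616 in CBM and 886, 917 and 741 in EBM, and EBM 3 was the lowest EBM library. ATG8 TPM summed to 549, 597 and 560 in CBM and 604, 644 and 739 in EBM, and EBM 3 was the highest. CBM 2 was the highest CBM library in both classes. CBM 2 and EBM 3 were also the libraries at the same end of the leading component (42.9 and 46.0), which was not one of region. The part of that component in the ATG8 levels was not tested. No receptor or ATG8 sum in EBM was below the highest of the same class in CBM. The means were 670 ± 48.2 and 848 ± 93.8 TPM for the receptors and 569 ± 25.1 and 662 ± 69.1 TPM for the ATG8 genes.

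The balance between the classes did not follow region. The ratio of summed receptor to summed ATG8 TPM was 1.25, 1.18 and 1.10 in CBM and 1.47, 1.42 and 1.004 in EBM. EBM 1 and EBM 2 were above all CBM libraries and EBM 3 below them. On the log2 scale, with each gene set to its mean over the 6 libraries, the median deviation of the receptors minus that of the ATG8 genes was 0.10, 0.19 and -0.13 in CBM and 0.07, 0.13 and -0.43 in EBM. The mean of this difference was 0.05 ± 0.17 in CBM and -0.08 ± 0.31 in EBM, so the regions differed by less than the spread between libraries. Without EBM 3 the regional difference turned from -0.13 to 0.11. The median deviation of the ATG8 genes was higher in EBM by 0.30, and by 0.14 without EBM 3, while that of the receptors was higher by 0.17, and by between 0.08 (without CBM 3) and 0.33 (without CBM 2) with 1 library left out. Within the ATG8 family the share of Gabarap was level, between 47.3% and 49.4% of summed TPM in every library.

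**Figure D3:**
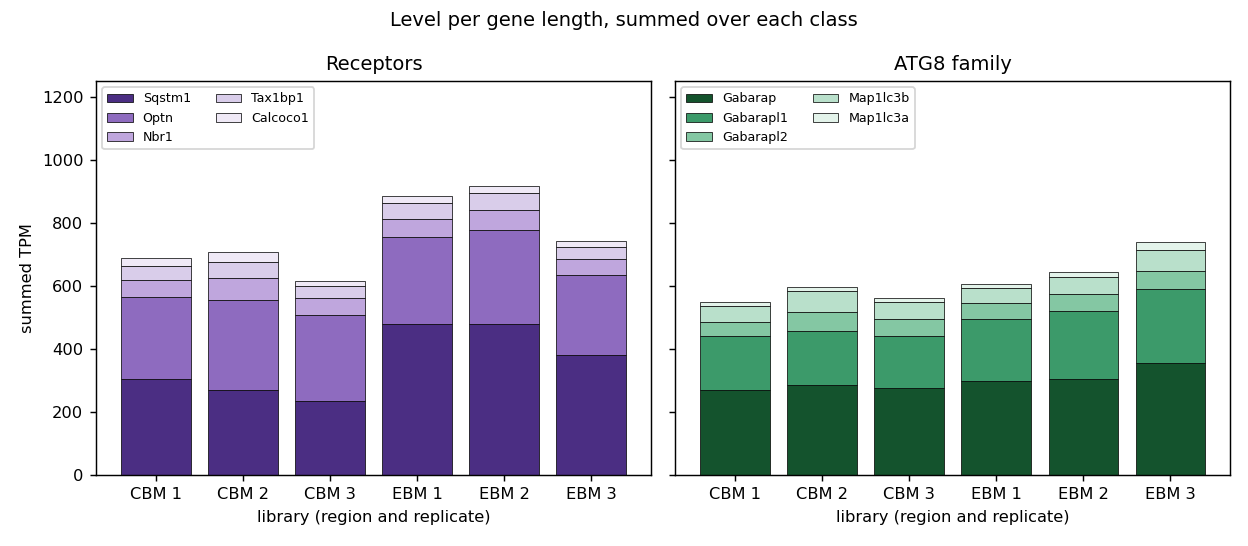
Summed level per gene length (TPM) of the receptors, left, and the ATG8 genes, right, in each library, with the genes stacked from 0. The Sqstm1 part of the receptor bars is larger in the 3 EBM libraries than in the 3 CBM libraries, and EBM 3 has the tallest ATG8 bar and the shortest receptor bar of EBM.

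Levels were compared between genes in TPM. Sqstm1 was highest with a mean of 357 TPM over the 6 libraries, followed by Gabarap at 298 and Optn at 275 TPM, and the ranges of neighbours in this order overlapped. Gabarapl1 came next at 192 TPM, with a range of 165 to 235 that overlapped neither that of Optn above nor that of Nbr1 below. Nbr1, Map1lc3b, Gabarapl2 and Tax1bp1 were at 57.9, 57.4, 52.5 and 46.3 TPM, and each overlapped the next. Unlike in CPM, the TPM means of Nbr1 (58.6 in CBM, 57.2 in EBM) and Map1lc3b (57.7 and 57.1) were slightly lower in EBM. Calcoco1 at 22.5 TPM was apart from Tax1bp1 and overlapped Map1lc3a at 15.4 TPM. The leading place depended on region, since Sqstm1 was at 270 ± 35.2 TPM in CBM, beside 277 ± 7.01 for Gabarap and 272 ± 12.1 for Optn, and at 445 ± 56.8 TPM in EBM. The order rests on the lengths in the deposited table, which gives Map1lc3b 7517 bases where its principal transcript has 2532.

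The other genes of the pathway were read from lists by role, in which 54 of 58 genes could be tested. The EBM mean was higher for 34 and lower for 20, and the median was 0.04 against 0.00 over all genes. By edgeR 0 of them passed after adjustment, and 6 higher and 1 lower passed an unadjusted p of 0.05, beside 4.01% and 3.9% of all genes. DESeq2 called 1 of them after adjustment, Tfe3.

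Among the regulators, Tfe3, a MiT/TFE factor that drives lysosomal and autophagy genes, was at 58.7, 78.7 and 60.2 CPM in CBM and 101, 113 and 126 CPM in EBM. The libraries did not overlap, and the log2 fold change was 0.78 (SE 0.15, edgeR adjusted p = 0.20, DESeq2 adjusted p = 0.0020). Its relative Tfeb was low, at 3.08 ± 1.08 CPM in CBM and 2.02 ± 0.65 CPM in EBM (log2 fold change of -0.60 by edgeR, adjusted p = 0.76), and Foxo3 had a log2 fold change of 0.19. Nfe2l2, which encodes Nrf2, an activator of Sqstm1, was at 84.9 ± 11.2 CPM in CBM and 119 ± 9.55 CPM in EBM. No EBM library of Nfe2l2 reached down to the CBM range (log2 fold change 0.49, edgeR adjusted p = 0.36). Keap1 lay the other way, at 90.3 ± 4.16 and 74.3 ± 8.73 CPM, with every EBM library below every CBM library at -0.28 on the log2 scale (edgeR adjusted p = 0.60). Tbk1, the kinase of optineurin, had a log2 fold change of -0.01.

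Among the genes that start autophagy, Ulk1, the initiating kinase that mTORC1 inhibits, was at 163 ± 53.9 CPM in CBM and 266 ± 51.0 CPM in EBM. Its regions overlapped, since CBM 2 was above EBM 1, and the log2 fold change was 0.70 (SE 0.26, edgeR adjusted p = 0.56). The 5 genes of the initiation complex had a median of 0.01, with Ulk2 at -0.19 and Rb1cc1 at -0.20. The 8 genes of the class III PI3-kinase complexes, which make the lipid that marks the growing membrane, had a median of 0.07, and Uvrag was at 0.21, Ambra1 at 0.08 and Pik3r4 at -0.09. The 10 genes of membrane supply and the WIPI proteins had a median of 0.03, with Wdr45b at 0.24, Wdr45 at 0.25 and Vmp1 at 0.13.

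The enzymes that act on ATG8 proteins lay on both sides of 0. Of 7 genes that conjugate them to lipid, 6 were higher in EBM, with a median of 0.14. Atg12, the ubiquitin-like partner of Atg5, was at 50.4 ± 5.35 CPM in CBM and 62.7 ± 5.63 CPM in EBM, which did not overlap (log2 difference 0.32, edgeR adjusted p = 0.58). Atg16l2 was low, at 4.49 ± 0.55 and 7.67 ± 2.14 CPM, without overlap at 0.77 on the log2 scale (edgeR adjusted p = 0.53), while Atg16l1, the more abundant paralog, was at -0.20. All 4 ATG4 proteases, which trim ATG8 proteins and free them from lipid, had a log2 fold change below 0, with a median of -0.14 and no gene under an unadjusted edgeR p of 0.05. Atg4c was at -0.28, Atg4d at -0.16 and Atg4b at -0.12, and without CBM 2 Atg4b turned to 0.14 and the median of the 4 to 0.04.

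Of 9 other receptor genes 6 could be tested, with a median of 0.04, and Calcoco2, Retreg1 and Stbd1 did not pass the filter. Tollip, an endosomal adaptor that binds ubiquitin, was at 104 ± 6.20 CPM in CBM and 127 ± 9.26 CPM in EBM, without overlap, and its log2 fold change was 0.29 (edgeR adjusted p = 0.52). Nufip1, a receptor for ribosomes, was at 0.20, and Ccpg1, a receptor of the endoplasmic reticulum with at most 1.02 CPM in a library, at -0.63. The 6 genes of fusion with lysosomes had a median of 0.01. Stx17, the SNARE of the autophagosome, was at -0.22 with every EBM library below every CBM library, Rab7 at 0.15 and Snap29 at 0.13. Ddit4, the inhibitor of mTORC1 that the series is about, was at 37.2 ± 5.33 CPM in CBM and 55.3 ± 3.24 CPM in EBM, without overlap. Its log2 fold change was 0.57 (SE 0.13, edgeR adjusted p = 0.30, DESeq2 adjusted p = 0.036).

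**Figure D4:**
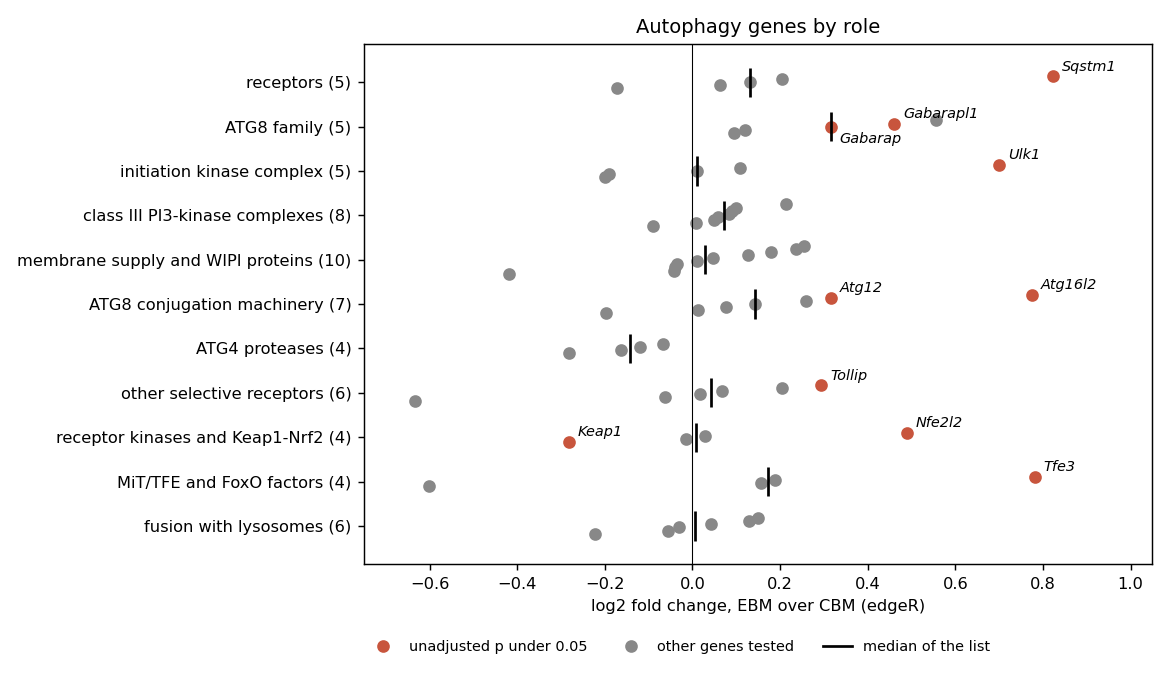
Log2 fold change (EBM over CBM, edgeR) of every tested autophagy gene, in a row for each role with the number of genes in brackets. Red points are genes with an unadjusted p under 0.05, which are named, grey points are the other genes, and black lines are medians. Sqstm1, Tfe3 and Atg16l2 lie farthest to the right, and the 4 ATG4 proteases all lie left of 0.

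Genes whose levels ran most like those of Sqstm1 and Gabarapl1 were found by Pearson's r of log2 CPM over the 6 libraries, as a description over points that share region and library. For Sqstm1 these were Relb (r = 0.995), a subunit of NF-kB, Tmem88 (0.994) and Icam1 (0.993), an adhesion molecule, among 223 genes with r above 0.9. Relb was at 37.1, 25.0 and 20.3 CPM in CBM and 118, 103 and 70.4 CPM in EBM, with the libraries of each region in the same order as for Sqstm1. For Gabarapl1 they were Rnd1 (0.995), Zdhhc24 (0.994) and Ngdn (0.993), among 229 genes. Rnd1 was at 7.63, 10.3 and 6.25 CPM in CBM and 29.0, 42.4 and 80.4 CPM in EBM, so that EBM 3 was highest, as for Gabarapl1. Among the members themselves, r was 0.96 between Gabarap and Gabarapl1, 0.93 between Gabarap and Map1lc3a and 0.80 between Sqstm1 and Gabarapl1. Between Sqstm1 and Map1lc3b r was 0.04, and between Sqstm1 and Nbr1 it was 0.29.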

How the data were processed

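The libraries held RNA from sorted AE9a leukemia cells, with 3 from CBM and 3 from EBM, grouped by their labels. The authors deposited raw counts of reads per gene with no normalization, and a gene length that was used as given. The submitters' processing notes name HISAT2 2.0.5 and the mm10 build, and the counting tool and its strand setting are not given in the sources used here, which leaves values uncertain where 2 genes share bases on opposite strands. The labels give the library type as mRNA, whereas the study's methods describe rRNA-depleted RNA and a directional kit. Coordinates of all 10 genes were the same in GENCODE M21. No column of per-sample values was left unused (0).

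Genes were filtered by filterByExpr, scaled by TMM and tested by the quasi-likelihood F-test of edgeR 4.0.16 (R 4.3.3) without a block, adjusted by Benjamini-Hochberg over all 13352 genes with a threshold of 0.05. The standard error is the log2 fold change over the square root of F. Log2 CPM used a prior count of 2. TPM used the deposited lengths. Alternatives were DESeq2 1.42.0 (genes with at least 1 count), limma-voom (limma 3.58.1), DESeq2 size factors, no filter or at least 1 CPM in 3 libraries, the replicate number as block and each library left out. Summing the processed copies, found with blastn 2.17.0, was added after seeing the data. The edgeR fit was tested on simulated data, and DESeq2 and limma-voom were not. The genes named are the 10 members, up to 3 genes with the smallest p in each list, the 3 genes most like Sqstm1 and Gabarapl1, and Ddit4. Kit, Cd34, Mpo, Ctsg, Acp5, Fos and Jun, the overlapping transcripts and processed copies named, and the motifs, were chosen after the values or windows were seen. The members and lists were chosen with earlier results of these data known.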

Additional observations from a re-analysis of the deposited data

How the results depend on the processing

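Over 130 values of the members under 13 alternatives, 124 kept their direction and their side of the threshold. Sqstm1 was past the adjusted threshold with DESeq2 (log2 fold change 0.83), and 5 values changed sign: Nbr1 without CBM 1 (-0.013), without CBM 3 (-0.012) and without EBM 2 (-0.0043), Calcoco1 without CBM 2 (0.12) and Map1lc3b without EBM 3 (-0.10). With 1 library left out the log2 fold change of these genes lay between -0.013 and 0.23 for Nbr1, between -0.41 and 0.12 for Calcoco1 and between -0.10 and 0.24 for Map1lc3b. The causes were not tested. The number of genes past the adjusted threshold was 0 with edgeR, 176 with DESeq2, 40 with edgeR without a filter on low counts, of which 0 were members, and 0 under the other alternatives. Leaving out 1 library gave 0 genes each time and between 678 (without CBM 3) and 1136 at an unadjusted p under 0.05, with Sqstm1 and Gabarapl1 among them each time.

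Leaving out 1 library moved the difference of the ATG8 class between 0.14 and 0.38 (0.30 with all libraries) and that of the receptors between 0.08 and 0.33 (0.17). List medians moved between 0.0083 and 0.17 for class III PI3-kinase (0.07), 0.11 and 0.21 for conjugation (0.14), 0.087 and 0.35 for MiT/TFE and FoxO (0.17), and, on both sides of 0, between -0.29 and 0.04 for the ATG4 proteases (-0.14), -0.12 and 0.17 for receptor kinases and Keap1-Nrf2 (0.01), -0.06 and 0.16 for membrane supply (0.03), -0.08 and 0.19 for the other receptors (0.04), -0.06 and 0.05 for initiation (0.01) and -0.05 and 0.04 for fusion (0.01).

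The deviations of same-numbered libraries had correlations of 0.68, -0.20 and 0.20, which do not settle whether these libraries are pairs. The main fit had no block because the study's statistics section uses unpaired comparisons. With the replicate number as a block edgeR called 0 genes, 1203 were under an unadjusted p of 0.05, and the difference of Sqstm1 was 0.83 on the log2 scale (edgeR adjusted p = 0.19). The block changed no call of a member.

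With 3 libraries per region the exact permutation test cannot go below 0.1. Ccpg1, Tfeb, Atg16l2 and Map1lc3a rest on few counts, and Map1lc3b and Gabarapl2 have processed copies.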
